A study of Mus musculus with 6 samples.

Results

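Hyaluronan synthesis, hyaluronan binding and versican turnover were followed in mouse lens tissue through 10 genes, listed by symbol for their roles, with earlier results of these data known. They are the synthases Has1, Has2 and Has3, the hyaluronidase gene Hyal1, the receptor gene Cd44, the binding-protein genes Tnfaip6 and Ptx3, the proteoglycan gene Vcan, and the protease genes Adamts1 and Adamts4. All 10 were found among the 24147 genes or gene copies of the deposited tables. RNA was sequenced from wild-type C57BL/6 mice, 2 months of age, operated on to imitate cataract surgery, in which the fiber cell mass was removed and the capsule left. Each library holds the capsule with the lens epithelial cells (LECs) that stayed on it, taken 24 h after the operation (3 libraries) or directly after it (0 h, 3 libraries). Every animal had the operation, so no library stands for an intact lens, and the sources used here do not say how many animals or eyes entered each library. The series calls the libraries biological triplicates, and p-values weigh the difference between times against the spread between libraries.

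Hyaluronan is a long unsulphated sugar polymer that synthases in the plasma membrane extrude directly into the space around cells. It swells with water, is held at the cell surface by CD44, and is bound by versican, a large proteoglycan carrying chondroitin sulphate chains. TSG-6, the product of Tnfaip6, moves heavy chains of inter-alpha-inhibitor from the blood onto hyaluronan, and pentraxin 3, the product of Ptx3, binds such complexes in the mouse cumulus matrix. ADAMTS proteases cut versican, and lysosomal hyaluronidases break hyaluronan down. Hyaluronan is also the main polysaccharide of the vitreous that borders the lens capsule.

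The libraries held 8069314 to 9249248 counts at 24 h and 8734906 to 10862573 counts at 0 h. Levels are CPM (counts scaled to a common library size, on TMM-adjusted totals), and a gene was called when edgeR's quasi-likelihood test gave an adjusted p under 0.05 over all 13956 genes tested. Of all genes tested, 28.2% were called, 15.2% as higher and 13.0% as lower at 24 h. Lens epithelial markers summed to 53350 to 67080 CPM at 24 h and 86750 to 146400 CPM at 0 h. Most of each sum was the crystallin gene Cryaa, at a mean of 46170 CPM at 24 h and 88070 CPM at 0 h. Foxe3 of the same list, named after its values were seen, averaged 28.3 CPM at 24 h and 83.0 CPM at 0 h. Listed markers of the labelled tissue were thus found at both times, but the sums mostly follow Cryaa. Photoreceptor markers were present as well, at 1062 to 4824 CPM at 24 h and 1953 to 6007 CPM at 0 h.

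Among the 10 genes, Ptx3, Adamts1, Has2 and Cd44 were higher at 24 h and Vcan was lower. Has1, Has3, Hyal1 and Adamts4 were not called, and Tnfaip6 was too low to be tested. The count of called genes was therefore 4 higher and 1 lower of 9 tested, beside the 15.2% and 13.0% of all genes. Libraries of the times did not overlap for these 5 genes, which was the case in 44.7% of all genes tested, 22.9% with higher and 21.8% with lower values at 24 h. Their 9 log2 fold changes had a median of 0.70, beside -0.03 over all genes tested. Has2 entered the test through its 24 h libraries, since its lowest 0 h library lay under the filter's 1.11 CPM, so these shares describe the genes tested and not all 10. In bulk tissue, fewer cells of a type and less RNA per cell cannot be told apart.

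**Figure D1:**
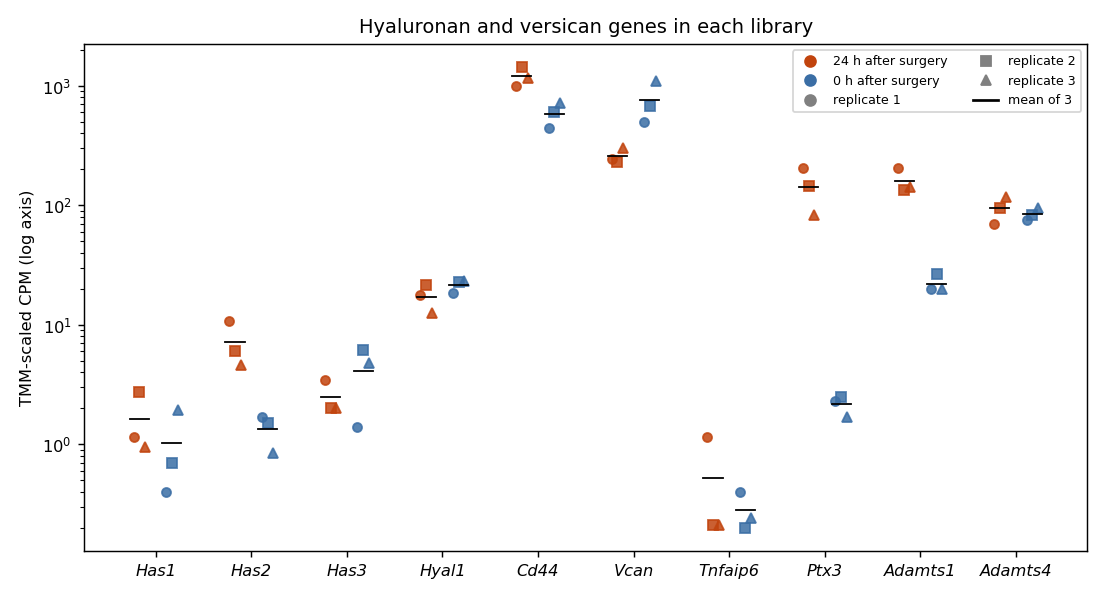
TMM-scaled CPM (log axis) of the 10 genes in each library, 24 h (orange) and 0 h (blue), with marker shapes for replicates and a bar at the mean of 3. Ptx3 sits between 83.6 and 203 CPM at 24 h and between 1.71 and 2.50 CPM at 0 h, while Vcan sits between 230 and 301 CPM at 24 h and between 497 and 1097 CPM at 0 h.

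**Figure D2:**
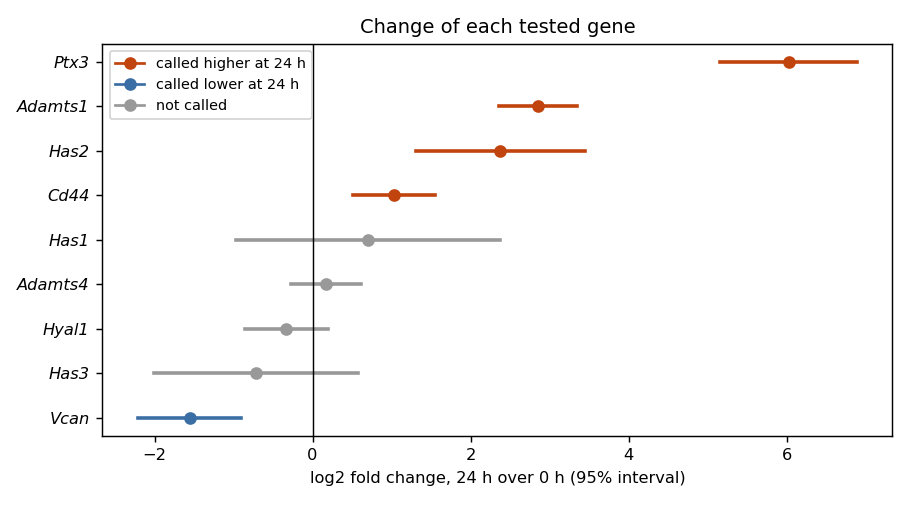
Log2 fold change of the 9 tested genes, 24 h over 0 h, with 95% intervals from edgeR's quasi-likelihood test. The intervals of Ptx3, Adamts1, Has2 and Cd44 lie above 0, that of Vcan lies below 0, and the other 4 include 0.

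Has2 was the synthase gene that rose. Its enzyme makes long hyaluronan chains, and mice lacking it die as embryos. Has2 (chromosome 15, 56665627 to 56694546) had 10.7, 6.05 and 4.65 CPM in replicates 1, 2 and 3 at 24 h, against 1.70, 1.5 and 0.854 CPM in replicates 1, 2 and 3 at 0 h. The lowest 24 h library was thus above the highest 0 h library, but the 24 h libraries differed among themselves by 2.31-fold. The log2 fold change was 2.37 ± 0.47 (SE; adjusted p = 0.00645), a 5.18-fold rise with a 95% interval on the log2 scale from 1.30 to 3.44. These values rest on 185 counts in the 24 h libraries together and 39 counts in the 0 h libraries. The antisense gene Has2os shares 182 exonic bases with Has2 in GENCODE M21 and had at most 1 count in any library.

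Has1 and Has3 stayed low and were not called. Has1 (chromosome 17, 17843326 to 17855188) had 1.15, 2.76 and 0.952 CPM at 24 h, against 0.401, 0.701 and 1.95 CPM at 0 h. Its libraries overlapped, with a log2 fold change of 0.70 (95% interval -0.97 to 2.37; adjusted p = 0.523). Has3 (chromosome 8, 106870242 to 106882902) had 3.45, 2.02 and 2.01 CPM at 24 h, against 1.4, 6.11 and 4.76 CPM at 0 h. These libraries overlapped too, and the log2 fold change was -0.72 (95% interval -2.01 to 0.58; adjusted p = 0.392). The interval of Has1 still holds a rise, and that of Has3 a fall, of more than 2-fold. Has3 differed by 4.36-fold among its 0 h libraries. Has3 shares 352 exonic bases with Chtf8 on the other strand, a gene with 935 to 1078 counts at 24 h and 690 to 978 counts at 0 h, and reads there may not have been told apart.

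Divided by gene length, the levels of the 3 synthase RNAs can be set against each other. Has2 made up 69.1%, 46.2% and 58.0% of the summed CPM per kb of the 3 synthases at 24 h, against 48.3%, 20.6% and 10.4% at 0 h. Replicate 1 at 0 h, at 48.3%, lay above replicate 2 at 24 h, so the shares overlapped between times. Has3 made up 15.9%, 11.1% and 18.0% at 24 h, against 28.6%, 59.99% and 41.5% at 0 h, with no overlap. The 3 synthases together summed to 3.67, 3.09 and 1.89 CPM per kb at 24 h, against 0.830, 1.72 and 1.94 CPM per kb at 0 h. Replicate 3 at 24 h was therefore within the 0 h range.

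**Figure D3:**
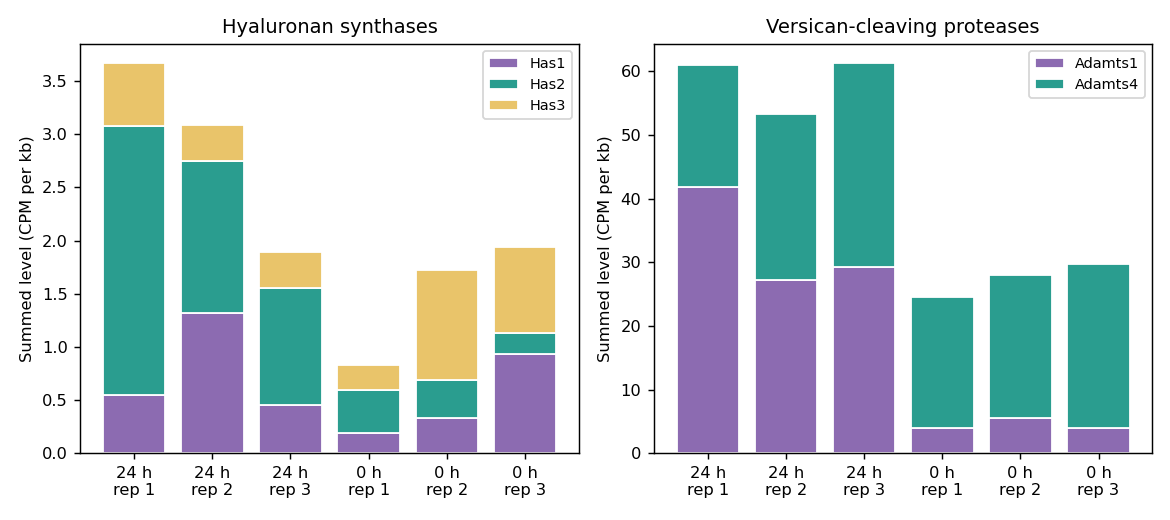
Summed CPM per kb of gene length in each library for the 3 synthase genes (left) and the 2 protease genes (right), 24 h libraries before 0 h libraries, each bar split by gene. Has2 fills 46.2% to 69.1% of the synthase bars at 24 h and 10.4% to 48.3% at 0 h, and Adamts1 fills 47.7% to 68.6% of the protease bars at 24 h and 13.6% to 19.6% at 0 h.

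Hyal1, which encodes a lysosomal hyaluronidase, was not called. Hyal1 (chromosome 9, 107576952 to 107580133) had 17.6, 21.3 and 12.5 CPM at 24 h, against 18.5, 22.8 and 23.4 CPM at 0 h. The libraries overlapped, and the log2 fold change of -0.33 had a 95% interval from -0.86 to 0.19 (adjusted p = 0.325). Per kb, Has2 stood at 0.312, 0.145 and 0.191 of the Hyal1 level at 24 h, against 0.0471, 0.0337 and 0.0187 of it at 0 h. The ratio was higher in all 3 libraries at 24 h, while Hyal1 RNA exceeded Has2 RNA in all 6. In GENCODE M21, transcripts of Naa80 (Nat6 in the files) share 1920 exonic bases with those of Hyal1 on the same strand, although the deposited spans of the 2 genes do not overlap.

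Cd44, the main cell-surface receptor for hyaluronan, rose and was among the highest genes at both times. Cd44 (chromosome 2, 102811142 to 102901665) had 995, 1432 and 1154 CPM at 24 h, against 442, 598 and 713 CPM at 0 h. The groups did not overlap, and the fold change was 2.04 (log2 1.03 ± 0.23, SE; adjusted p = 0.0110). Against a null of a 1.5-fold change it was not called (adjusted p = 0.0887). Its mean stood above that of 99.6% of genes tested at 24 h and above 98.9% at 0 h. The locus has 8 coding transcripts in GENCODE M21, with coding lengths from 1095 to 2340 bases, and the deposited counts do not separate them.

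Ptx3 had a larger fold change than each of the other 8 genes tested. Ptx3 (chromosome 3, 66219887 to 66225806) had 203, 144 and 83.6 CPM at 24 h, against 2.30, 2.50 and 1.71 CPM at 0 h. Every 24 h library was many times above every 0 h library, and the 24 h libraries differed among themselves by 2.43-fold. The log2 fold change was 6.02 ± 0.38 (SE; adjusted p = 3.44e-05), a 65.0-fold rise that ranked 69 among the rises of all genes tested. These values rest on 3732 counts at 24 h and 62 counts at 0 h.

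Tnfaip6, whose protein acts beside pentraxin 3 on hyaluronan, stayed near the limit of detection. Tnfaip6 (chromosome 2, 52038113 to 52056681) had 9, 2 and 2 counts in replicates 1, 2 and 3 at 24 h, against 4, 2 and 2 counts at 0 h. Apart from replicate 1 of each time, every library lay under the floor of 3 counts. The summed counts of 13 at 24 h and 8 at 0 h gave a ratio of 1.71 with an exact 95% counting interval of 0.659 to 4.77, which covers counting error only. Per kb, Ptx3 exceeded Tnfaip6 by 147, 564 and 329 times at 24 h, against 4.79, 10.4 and 5.83 times at 0 h, each ratio resting on the few Tnfaip6 counts.

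The start-site regions of both genes are shown because Ptx3 RNA rose while Tnfaip6 RNA stayed near the floor. RefSeq sequences (GRCm38.p6, the same coordinates as mm10) were matched by symbol for 7 of the 10 genes. In windows of 250 bases before and 50 after each start, both strands were searched for the NF-kB consensus, the AP-1 motif TGANTCA, the cAMP response element TGACGTCA and the STAT motif TTCNNNGAA. These were found in 8.46%, 7.81%, 1.79% and 8.29% of all 32817 promoter windows. Matches are in capitals, and a match describes letters, not a bound site.
Ptx3, 30 bases across the start, chr3:66219876-66219905, + strand: cccaaatccaGGGGAACTCCCtcgcgctgt
Ptx3, 250 bases before the start, chr3:66219637-66219886, + strand: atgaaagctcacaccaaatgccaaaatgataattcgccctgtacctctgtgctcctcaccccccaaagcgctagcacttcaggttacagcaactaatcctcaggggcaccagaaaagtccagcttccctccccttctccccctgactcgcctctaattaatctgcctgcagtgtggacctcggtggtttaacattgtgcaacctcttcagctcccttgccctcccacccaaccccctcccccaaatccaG
Tnfaip6, 250 bases before the start, chr2:52037863-52038112, + strand: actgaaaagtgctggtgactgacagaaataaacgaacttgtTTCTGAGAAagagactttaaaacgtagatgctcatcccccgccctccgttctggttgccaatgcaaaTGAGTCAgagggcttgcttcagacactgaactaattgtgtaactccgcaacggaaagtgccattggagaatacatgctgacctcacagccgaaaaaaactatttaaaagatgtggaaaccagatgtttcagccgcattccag
The Ptx3 window held 2 overlapping NF-kB matches from base -1 to base 10 around the start (the start being base 1, with no base 0) and no other match. The Tnfaip6 window held an AP-1 match at bases -142 to -136 and a STAT match at bases -209 to -201, while its RNA was near the floor at both times. Has1 held a cAMP response element at bases -83 to -76, and the windows of Hyal1, Cd44, Vcan and Adamts1 held none of the 4 motifs.

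Vcan was the gene that fell. Versican is found in the vitreous, in the ciliary zonule and in provisional wound matrix. Vcan (chromosome 13, 89655310 to 89742512) had 242, 230 and 301 CPM at 24 h, against 497, 678 and 1097 CPM at 0 h. The 24 h libraries lay close together and under all 0 h libraries, which spread over 2.21-fold. The log2 fold change was -1.56 ± 0.29 (SE; 95% interval -2.21 to -0.90; adjusted p = 0.00460), a fold of 0.340. Without 0 h replicate 3, the library with the most Vcan, the log2 fold change was -1.17 (adjusted p = 0.0108). Vcan stood at 534 among the falls of all genes tested.

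The longest coding transcript of Vcan in GENCODE M21 has 15 exons, and its 2 longest exons, of 5217 and 2880 bases, make up 65.2% of it. They encode the regions that carry chondroitin sulphate and are present or absent in the versican isoforms, which the deposited gene counts do not separate. Exon use was not tested. The sequences before the starts of Vcan and Adamts1 are shown as those of the proteoglycan that fell and its protease that rose, with no match to the 4 motifs.
Vcan, 250 bases before the start, chr13:89742513-89742762, - strand: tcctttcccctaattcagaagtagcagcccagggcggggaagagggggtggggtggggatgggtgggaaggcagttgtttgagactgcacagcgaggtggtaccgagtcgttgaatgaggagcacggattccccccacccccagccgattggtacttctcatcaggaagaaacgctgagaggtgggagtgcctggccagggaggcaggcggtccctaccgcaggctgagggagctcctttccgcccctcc
Adamts1, 250 bases before the start, chr16:85803114-85803363, - strand: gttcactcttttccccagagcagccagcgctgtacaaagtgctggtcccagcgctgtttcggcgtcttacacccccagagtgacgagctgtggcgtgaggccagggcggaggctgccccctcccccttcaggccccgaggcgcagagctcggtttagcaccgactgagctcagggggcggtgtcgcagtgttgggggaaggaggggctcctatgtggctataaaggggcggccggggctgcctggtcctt
Over these 250 bases the share of G and C was 62.4% for Vcan and 65.6% for Adamts1, beside 54.0% for Ptx3 and 44.4% for Tnfaip6.

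Of the 2 proteases, Adamts1 rose and Adamts4 was not called. Adamts1 (chromosome 16, 85793828 to 85803115), a secreted metalloprotease that cuts versican and aggrecan, had 204, 133 and 143 CPM at 24 h, against 19.8, 26.9 and 19.8 CPM at 0 h. The groups lay far apart, at a log2 fold change of 2.85 ± 0.22 (SE; adjusted p = 8.53e-05), which is a 7.22-fold rise. Adamts4 (chromosome 1, 171250422 to 171259922), known as aggrecanase-1, had 70.3, 95.5 and 118 CPM at 24 h, against 75.5, 82.9 and 94.2 CPM at 0 h. Its libraries overlapped, and its log2 fold change of 0.17 had a 95% interval from -0.27 to 0.61 (adjusted p = 0.566), which does not include a 2-fold change. Without 24 h replicate 3 the value was -0.02.

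Per kb, Adamts1 stood at 2.19, 1.05 and 0.914 times the Adamts4 level at 24 h, against 0.198, 0.244 and 0.158 times at 0 h. Adamts4 RNA was thus the larger in all 0 h libraries, and the 2 were near each other in 24 h replicates 2 and 3. Set against the versican RNA itself, Adamts1 stood at 2.54, 1.74 and 1.43 times the Vcan level per kb at 24 h, against 0.120, 0.119 and 0.0542 times at 0 h. Cd44 stood at 10.7, 16.2 and 9.97 times the Vcan level at 24 h, against 2.31, 2.29 and 1.69 times at 0 h. Neither ratio overlapped between times, and none of these ratios was tested. The length used for Vcan, 14689 bases, is above the 12427 bases of its longest coding transcript in GENCODE M21. Its level and rank per kb, and the ratios to it, therefore depend on which isoforms were present. For Adamts4 and Hyal1 the lengths used, 3673 and 2175 bases, are under the 4386 and 3014 bases of their longest coding transcripts. Their levels per kb depend on length likewise, and so does the order of Adamts1 and Adamts4 in 24 h replicate 3.

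The order of the 10 genes by mean CPM per kb differed between times. At 24 h it ran from Cd44 (211) over Ptx3 (74.6), Adamts1 (32.8), Adamts4 (25.7), Vcan (17.5) and Hyal1 (7.89) to Has2 (1.68), Has1 (0.775), Has3 (0.422) and Tnfaip6 (0.328). Neighbours whose libraries overlapped at 24 h were Adamts1 with Adamts4, Adamts4 with Vcan, and each pair from Has2 down. At 0 h it ran from Cd44 (103) over Vcan (51.6), Adamts4 (22.9), Hyal1 (9.93) and Adamts1 (4.53) to Ptx3 (1.13), Has3 (0.692), Has1 (0.487), Has2 (0.319) and Tnfaip6 (0.176). There the libraries of neighbours overlapped from Ptx3 down. Ptx3 stood at rank 2 at 24 h and rank 6 at 0 h, and Vcan at rank 5 at 24 h and rank 2 at 0 h.

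The genes did not follow the same library within a time. At 24 h, Has2, Has3, Tnfaip6, Ptx3 and Adamts1 were highest in replicate 1, Has1, Hyal1 and Cd44 in replicate 2, and Vcan and Adamts4 in replicate 3. At 0 h, Has1, Hyal1, Cd44, Vcan and Adamts4 were highest in replicate 3. The genes whose course over the 6 libraries lay nearest to that of Has2 were Srgap1, Zfp36l1 and Parp14, with a root mean square difference of mean-centred log2 CPM of 0.269, 0.280 and 0.286. Nearest to Cd44, the gene of the 10 with the highest mean CPM over all 6 libraries, were 1810055G02Rik and Pxylp1, at 0.0554 and 0.119. Among the 9 genes tested, Has2 and Adamts1 were the closest pair, at 0.451, with Hyal1 and Adamts4 little behind, at 0.4615.

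Around these 10 genes, 91 further genes of the pathway were read in 9 lists, of which 75 were tested. Of these, 20 (26.7%) were called higher and 10 (13.3%) lower, beside 15.2% and 13.0% of all genes tested, so the lower share was near that of all genes. The median log2 fold change was 0.11, against -0.03 over all genes tested. Counts of the single lists below are small and are to be read beside the same shares of all genes. The 20 higher calls included 18 that were made whichever single library was left out, and the 10 lower calls included 2, Fbln1 and Xylt1. The other 8 lower calls were each lost when at least 1 library was left out.

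**Figure D4:**
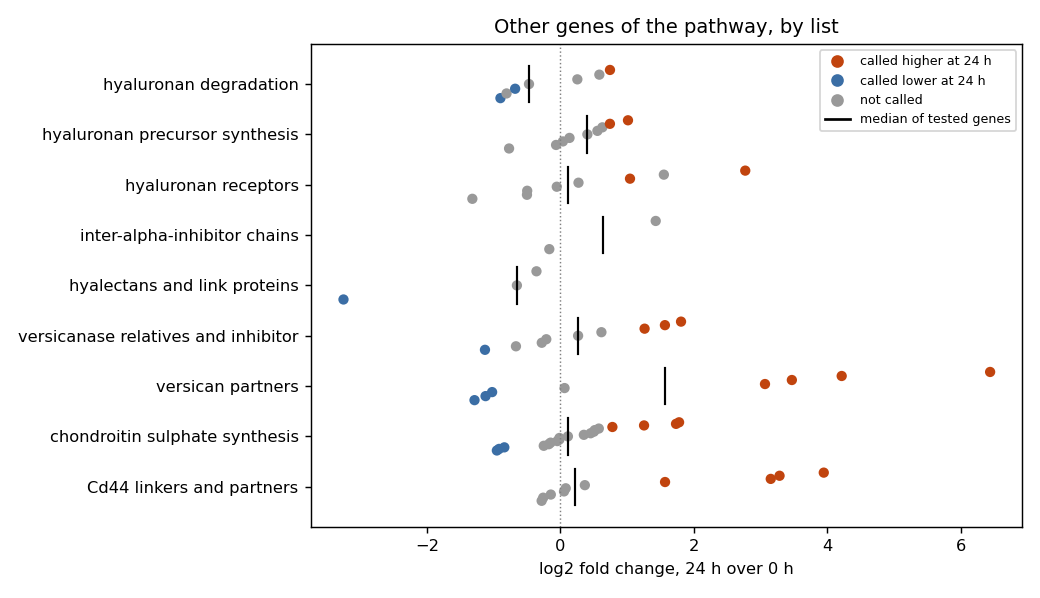
Log2 fold change, 24 h over 0 h, of the 75 tested pathway genes by list, coloured by call, with a bar at the median of each list. Versican partners run from Fbln1 at -1.29 to Tnc at 6.44.

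Enzymes that supply hyaluronan's sugar precursors were called higher in 2 of 9 tested and lower in 0. Of all genes tested, 15.2% were called higher and 13.0% lower. Ugdh, which makes UDP-glucuronic acid, had 36.8, 41.5 and 39.6 CPM at 24 h, against 19.7, 19.1 and 19.6 CPM at 0 h, a 2.02-fold rise (adjusted p = 0.00124). The libraries were tight within each time and far apart between times. Uap1, which makes UDP-N-acetylglucosamine, rose 1.67-fold (adjusted p = 0.0136) but was not called without 0 h replicate 2. Gfpt1, the first enzyme of the hexosamine pathway and the highest of the list over the 6 libraries, averaged 102 ± 3.53 CPM at 24 h and 107 ± 4.93 CPM at 0 h (SD, n = 3 each; adjusted p = 0.723).

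Of 9 genes of hyaluronan breakdown, 7 were tested, and 1 was called higher and 2 lower, beside 15.2% and 13.0% of all genes. Hyal2, a hyaluronidase anchored at the cell surface, had 21.0, 23.7 and 23.5 CPM at 24 h, against 14.9, 12.0 and 13.8 CPM at 0 h, and rose 1.67-fold (adjusted p = 0.0150). Hexa, which encodes a lysosomal enzyme subunit, fell to 0.624 of its 0 h level (adjusted p = 0.0361). Hyal2 was not called without 0 h replicate 2. Hexa lost its call when replicate 1 or 2 at 24 h, or replicate 1 or 3 at 0 h, was left out. Hyal4 and Spam1, hyaluronidases with restricted expression, had 0 counts in all libraries.

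Other hyaluronan receptors and sensors were called higher in 2 and lower in 0 of 8 tested, beside 15.2% and 13.0% of all genes. Layn, which encodes the membrane receptor layilin, had 40.4, 50.2 and 40.6 CPM at 24 h, against 6.51, 3.01 and 9.88 CPM at 0 h, and rose 6.82-fold (adjusted p = 0.000926). Tlr2, an innate receptor that hyaluronan fragments have been reported to engage, rose 2.06-fold (adjusted p = 0.00992). Stab1, a scavenger receptor, was not called (adjusted p = 0.473). Its adjusted p over 13 alternatives ran from 0.0457, when replicate 3 at 0 h was left out and it was called higher, to 1.

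RNA of the inter-alpha-inhibitor chains was scarce in these libraries, and the proteins, which come from the blood, were not measured. Of 6 inter-alpha-inhibitor genes, Ambp and Itih3 had 0 counts in all 6 libraries and 2 were tested, with no call in either direction. Itih5 had 3.96, 1.17 and 7.19 CPM at 24 h, against 1.70, 1.5 and 1.34 CPM at 0 h (adjusted p = 0.127), and Itih2 was not called either (adjusted p = 0.850). The adjusted p of Itih5 over 13 alternatives ran from 0.0249, a call as higher when replicate 2 at 24 h was left out, to 0.451.

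Of the other hyalectans and link proteins, 3 of 7 were tested and 1 was lower. Hapln1, the link protein that fastens versican to hyaluronan, had 0.767, 0 and 0.211 CPM at 24 h, against 1.90, 2.81 and 4.51 CPM at 0 h. Its libraries did not overlap, and its log2 fold change was -3.25 ± 0.88 (SE; adjusted p = 0.0251). It passed the filter on low counts only through the 0 h libraries, so that its being tested required high 0 h values. Leaving out replicate 1 at 24 h gave -4.65, and leaving out replicate 2 at 24 h gave -2.65. The call was lost when replicate 3 at 24 h, or replicate 2 or 3 at 0 h, was left out. Hapln4 was not called (adjusted p = 0.660).

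Matrix proteins that bind versican divided into a group that rose and a group that fell, with 4 higher and 3 lower of 8. Tnc, the gene of tenascin C, had 412, 838 and 952 CPM at 24 h, against 7.11, 10.5 and 7.69 CPM at 0 h (adjusted p = 2.83e-05). Fn1, the gene of fibronectin, had 176, 377 and 513 CPM at 24 h, against 18.9, 22.6 and 15.7 CPM at 0 h (adjusted p = 0.000194). Both were lowest at 24 h in replicate 1, the library in which Ptx3 and Has2 were highest. Of the same list and picked with values in view, Fbln2 rose at a log2 fold change of 3.06, which was 2.16 without 24 h replicate 3. Thbs1, picked likewise, rose at 3.47, which was 2.79 without that library.

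Fbln1, the gene of fibulin-1 and the highest of these partners by mean level over the 6 libraries, though under Tnc at 24 h, fell. It had 702, 417 and 584 CPM at 24 h, against 1142, 1523 and 1491 CPM at 0 h, a fold of 0.409 (adjusted p = 0.00433). Both fibrillin genes, also chosen after their values were seen, were lower, Fbn2 at a fold of 0.459 (adjusted p = 0.0148) and Fbn1 at a log2 fold change of -1.02 (adjusted p = 0.0459). Fbn1 lost its call under either other scaling and when replicate 1 or 2 at 24 h, or any 0 h library, was left out, and Fbn2 lost it without replicate 3 at 0 h. Fibrillins build the zonular fibres that hold the lens.

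Relatives, activators and inhibitors of the versican-cleaving proteases were called higher in 3 and lower in 1 of 9 tested, beside 15.2% and 13.0% of all genes. The higher genes are not themselves proteases of that family. Sdc4, a membrane proteoglycan, had 825, 914 and 905 CPM at 24 h, against 237, 239 and 280 CPM at 0 h, a 3.50-fold rise (adjusted p = 0.000168). Furin, the protease that removes the propeptide of ADAMTS enzymes, rose 2.40-fold to 293 ± 38.6 CPM at 24 h, against 122 ± 2.02 CPM at 0 h (SD, n = 3 each; adjusted p = 0.000550). Adamtsl4, a secreted protein without protease activity that is linked to lens dislocation in people, rose 2.96-fold and was chosen after its values were seen. Lrp1, the endocytic receptor that clears several of these proteases, had 847, 581 and 1046 CPM at 24 h, against 1247, 1221 and 1462 CPM at 0 h (adjusted p = 0.0641). Its libraries did not overlap, and over 13 alternatives its adjusted p ran from 0.0167 with DESeq2 to 0.561 against a 1.5-fold change. Leaving out replicate 3 at 24 h also gave a call as lower (adjusted p = 0.0279). Timp3, their tissue inhibitor, was at 837 ± 111 CPM at 24 h and 970 ± 173 CPM at 0 h (SD, n = 3 each; adjusted p = 0.468). It was also chosen after its values were seen. The lower gene, likewise picked with values in view, was Adamts15, whose call was lost with each of the 6 libraries left out in turn.

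Enzymes that build chondroitin sulphate, the chains versican carries, were called higher in 4 and lower in 3 of 19 tested. These counts were near the shares of all genes tested, 15.2% higher and 13.0% lower. Chst11, which sulphates chondroitin at the 4 position, had 195, 305 and 219 CPM at 24 h, against 53.0, 88.3 and 74.9 CPM at 0 h, a 3.32-fold rise (adjusted p = 0.00118). Chpf2, a chondroitin polymerising factor, rose 2.38-fold (adjusted p = 0.00151), and the further higher genes, named after their values were seen, were Chpf and Chsy3. The lower genes, named likewise, were Xylt1, which starts the chains, and the sulphotransferases Chst12 and Ust. Fam20b, the highest of the list over the 6 libraries, though under Chst11 at 24 h, was at 169 ± 29.1 CPM at 24 h and 191 ± 26.2 CPM at 0 h (SD, n = 3 each; adjusted p = 0.496). Ust lost its call when replicate 1 or 2 at 24 h, or replicate 2 or 3 at 0 h, was left out, and Chst12 lost it without replicate 3 at 0 h.

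Partners of CD44 were called higher in 4 of 10 tested and lower in 0. Msn, the gene of moesin, which ties CD44 to actin, had 680, 895 and 871 CPM at 24 h, against 95.7, 77.2 and 78.5 CPM at 0 h, a 9.73-fold rise (adjusted p = 2.51e-05). Its relatives Ezr and Rdx, chosen after their values were seen, had log2 fold changes of 0.08 and -0.14 and were not called. Mmp14, a membrane metalloprotease that sheds CD44, had 87.6, 69.9 and 100.1 CPM at 24 h, against 24.4, 29.96 and 32.6 CPM at 0 h (adjusted p = 0.000497). Mmp9, a protease that docks on CD44, and Spp1, the gene of the CD44 ligand osteopontin, were also picked with values in view. They rose by log2 fold changes of 3.95 for Mmp9 and 3.15 for Spp1, and Spp1 was at 2.50 without replicate 3 at 24 h. Mmp9 passed the filter on low counts only through its 24 h libraries.

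Markers of other cells moved with the times as well, and their part in the changes above was not tested. The 2 markers named for a list have the highest mean over the 6 libraries and need not lead at each time. All 6 neutrophil markers tested of 13 listed were higher, and the list summed to 97.8, 131 and 185 CPM in replicates 1, 2 and 3 at 24 h, against 6.21, 13.03 and 16.6 CPM at 0 h. Of these 6, 4 passed the filter on low counts only through the 24 h libraries and so had to be high there. The named neutrophil markers were Itgam, at 37.3 CPM at 24 h against 3.70 CPM at 0 h, and Csf3r, at 37.6 CPM at 24 h against 1.98 CPM at 0 h. The granule gene Elane had 0 counts throughout. Monocyte and macrophage markers, among them Lyz2 and Csf1r, summed to 102 to 210 CPM at 24 h and 86.5 to 196 CPM at 0 h, with 4 higher and 4 lower of 15. Cd68, the highest of them at 24 h and named after its values were seen, rose 5.85-fold. Ccr2, a higher gene, was over the filter's cutoff in all 3 libraries only at 24 h, and Cd163, a lower gene, only at 0 h. Both were named likewise. Ccr2 was at 1.66, 2.23 and 21.0 CPM at 24 h, against 0.401, 0.301 and 0.488 CPM at 0 h. Lymphocyte markers, among them Cd8a and Cd4, summed to at most 1.91 CPM at 24 h and 1.95 CPM at 0 h. Cd3g had 0 counts throughout.

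Beside the fall of Vcan, ciliary and pigment epithelial markers, among them Aqp1 and Dct, summed to 470 to 1520 CPM at 24 h. At 0 h they summed to 767 to 893 CPM, and of the 10, 3 were higher and 4 lower. Aqp1, not called, was a large part of the sum, at 337, 348 and 574 CPM at 24 h, against 524, 457 and 607 CPM at 0 h. Whether LECs themselves expressed Aqp1, or Pdgfra of the next list, was not tested. The sum hides opposite changes, since the 4 lower genes had log2 fold changes from -5.80 to -2.80 with no overlap, while the 3 higher ones, all pigment genes, overlapped between times. Best2, a ciliary epithelial gene among the 4 and named after its values were seen, had 15.3, 5.63 and 14.4 CPM at 24 h, against 58.9, 98.7 and 87.7 CPM at 0 h. Of these 4, 2 passed the filter on low counts only through the 0 h libraries. Mlana, among the 3 higher genes, was over its cutoff in all 3 libraries only at 24 h. Fibroblast or keratocyte markers, among them Aldh3a1 and Pdgfra, summed to 910 to 1408 CPM at 24 h, against 1147 to 1726 CPM at 0 h. This sum also hides opposite changes, with 3 higher and 1 lower of 7 tested. Aldh3a1 was the lower gene, and Pdgfra was not called (adjusted p = 0.0613). The higher genes, named after their values were seen, were Col1a1, Col6a3 and Col3a1, the last overlapping between times. Kera, a defining keratocyte gene, had 0 counts in all libraries. Vessel and pericyte markers, among them Pdgfrb and Kdr, summed to 104 to 132 CPM at 24 h and 164 to 172 CPM at 0 h. Pdgfrb was called lower, at a fold of 0.573 (adjusted p = 0.00527), while Kdr was not called (adjusted p = 0.145). Despite the smaller sum, Cdh5 rose 12.8-fold (adjusted p = 0.00253) and Pecam1 4.73-fold (adjusted p = 0.0197), both named after their values were seen. These 2 rising genes passed the filter on low counts only through the 24 h libraries. Of the 9 vessel and pericyte markers tested, 6 were not called. Corneal markers, among them Col8a1 and Krt15, summed to 38.55 to 136.5 CPM at 24 h and 22.45 to 33.07 CPM at 0 h. Lens fiber markers, among them Cryba1 and Crygs, summed to 8241 to 9780 CPM at 24 h and 18270 to 37360 CPM at 0 h, with 8 lower of 9. Among lens epithelial markers, among them Cryaa and Cryab, 7 of 10 were lower and 0 higher. None of the 8 photoreceptor markers was called.

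**Figure D5:**
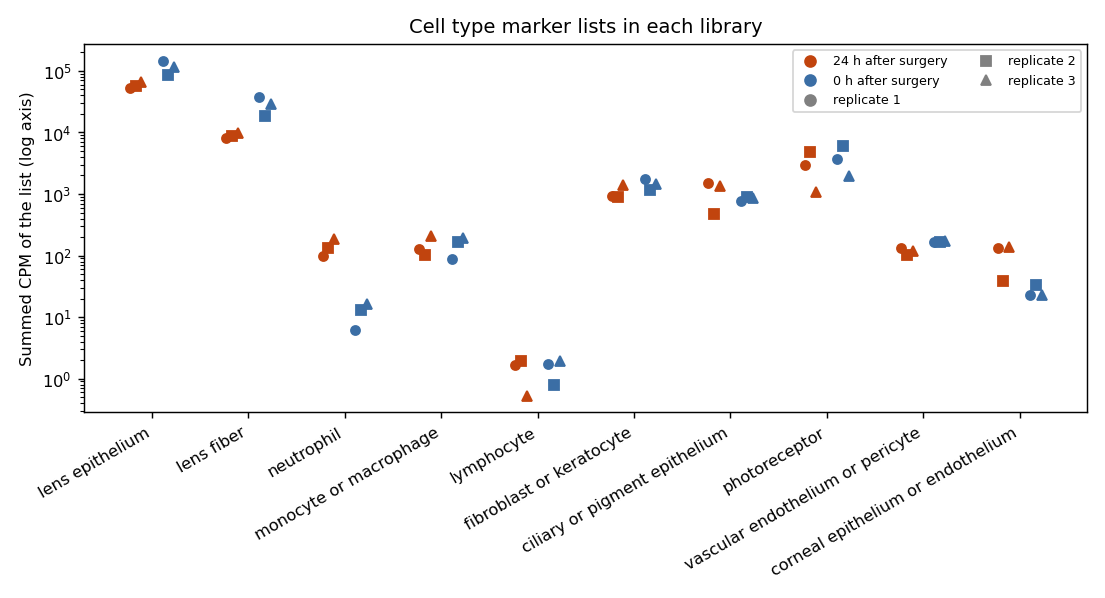
Summed CPM (log axis) of 10 lists of cell type markers in each library, 24 h (orange) and 0 h (blue), with marker shapes for replicates. Neutrophil markers lie at 97.8 to 185 CPM at 24 h, against 6.21 to 16.6 CPM at 0 h, and lens fiber markers at 8241 to 9780 CPM at 24 h and 18270 to 37360 CPM at 0 h.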

How the data were processed

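RNA from 6 libraries was compared, 3 at 24 h and 3 at 0 h, grouped by their titles. Per the submitters' processing notes, the tools included HTSeq 0.6.1p1 and TopHat2 2.1.0, beside Trim Galore 0.4.4 and edgeR 3.16.5, with mm10 as the build. The annotation and whether counting used strand are not stated in the labels or headers. Per the file headers, the authors' tables hold a raw read count for each gene. The authors also deposited RPKM values, which were not tested. Coordinates are as deposited, on mm10.

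Counts were filtered with filterByExpr (edgeR 4.0.16, R 4.3.3), which left 13956 genes, and scaled by TMM. A quasi-likelihood test of 24 h against 0 h, two-sided and without covariates, was adjusted by Benjamini-Hochberg over all genes tested. Standard errors are the log2 fold change over the root of the F statistic. CPM per kb used the deposited length. A floor of 3 counts was 0.301 to 0.384 CPM per library. The scripts were tested on simulated data. Alternatives used DESeq2 1.42.0, limma 3.58.1, other scalings, no filter, a 1.5-fold null, a replicate block and each library left out.

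The 10 genes and the lists were chosen with earlier results of these data known. The text names all 10 genes, the 2 genes with the lowest p and the 1 with the highest mean in each pathway list, and the 2 highest markers, with any at 0, in each cell type list. Some genes that this rule selects are not reported here.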

Additional observations from a re-analysis of the deposited data

How the results depend on the processing

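Among the 9 tested genes, 13 alternatives each left direction and call as they were, with 2 exceptions. Cd44 was not called against a 1.5-fold change (log2 fold change 1.03, adjusted p = 0.0887), and Adamts4, not called in any, was at -0.02 without 24 h replicate 3. Leaving out 1 library at a time gave log2 fold changes of 2.00 to 2.61 for Has2, 0.88 to 1.22 for Cd44, -1.75 to -1.17 for Vcan, 5.73 to 6.30 for Ptx3 and 2.67 to 3.01 for Adamts1. It gave 0.07 to 1.56 for Has1, -1.10 to -0.30 for Has3, -0.52 to -0.14 for Hyal1 and -0.02 to 0.38 for Adamts4. Has1 and Tnfaip6 rest on few counts. With no filter, Tnfaip6 had a log2 fold change of 0.83 (adjusted p = 0.639).

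Against a 1.5-fold change, 1060 genes were higher and 629 lower, and 1 pathway gene was lower. Leaving out 1 library at a time gave 1551 to 1897 higher and 1041 to 1648 lower genes. For the pathway lists it gave 19 to 23 higher and 2 to 10 lower genes, with 2 lower without 0 h replicate 3, 5 without 24 h replicate 2 and 6 without 0 h replicate 2. Among uncalled list genes, Gfpt1 changed sign to 0.02 with library totals only, and Itih2 ran from -0.64 to 0.09, at 0.09 without 24 h replicate 1.

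Deviations from the group means correlated at 0.0866, 0.215 and 0.397 across genes for same-numbered libraries 1, 2 and 3. Between libraries of different numbers the correlations ran from -0.35 to 0.172. These values do not settle whether the numbers pair the libraries, and the main fit took them as unpaired. With replicate number as a block, Has2 was at 2.36, Cd44 at 1.04, Vcan at -1.49, Ptx3 at 6.01 and Adamts1 at 2.84 (log2), and calls were 2315 higher and 2174 lower genes. Under the block, Lrp1 was called lower (adjusted p = 0.0183).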
